A study of Mus musculus with 40 samples.

Results

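Nrgn and Pcp4, 2 genes that encode small calmodulin-binding proteins, were followed through 28 RNA-seq libraries of mouse follicular B cells. They are the 2 rows of 24732 in each expression file that carry these names, and neither row is marked as overlapping or duplicating another gene. The pair was picked from these same values, because both are high in anergic cells and differ elsewhere, so their levels and differences are given below as a description with no test. All libraries came from C57BL/6 mice with the MD4 transgene, which gives B cells a receptor for hen egg lysozyme (HEL), and the labels give no age. The loxP-flanked (fl) Ikzf1 allele encodes Ikaros and is removed by Cd23-cre, a Cre driven by the regulatory sequence of the mature B cell gene Cd23.

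The groups were as follows. Anergic follicular B cells came from MD4 mice in which a second transgene, ML5, supplies soluble HEL, and their 3 libraries have 3 genotypes: Ikzf1(fl/fl), Ikzf1(fl/+) and Cd23-Cre Ikzf1(fl/+). Cells taken 1 day after intravenous HEL came from Cd23-cre Ikzf1(fl/fl) mice (5 libraries) and from Ikzf1(fl/fl) mice without Cre (5 libraries), so that in this pair Cre and loss of Ikaros cannot be told apart. Naive cells came from Cd23-cre Ikzf1(fl/-) mice (2 libraries) and from controls with at least 1 intact allele. These controls were Cd23-cre Ikzf1(fl/+) (2 libraries) in the library series that begins with 36, and Ikzf1(fl/+) without Cre (2 libraries) and Cd23-cre Ikzf1(fl/+) (1 library) in series 57. Cells kept in vitro with CpG, a DNA ligand of Toll-like receptor 9, for 1 day came from Cd23-cre Ikzf1(fl/-) mice (4 libraries) and Cd23-cre Ikzf1(fl/+) mice (4 libraries), all in series 49, which holds no naive library. A library series is the first 2 digits of the library number in the label, and the anergic and HEL libraries belong to series 57.

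Nrgn encodes neurogranin and Pcp4 encodes PEP-19, and both proteins are best known from neurons. Each carries an IQ motif that binds calmodulin, also when calmodulin holds no calcium: neurogranin keeps calmodulin back until calcium or phosphorylation by protein kinase C releases it, while PEP-19 speeds up calcium exchange on calmodulin. In B cells the calcium signal of the antigen receptor runs through calmodulin to the phosphatase calcineurin and the NFAT factors, and to the calmodulin-dependent kinases. Anergic B cells, which meet their antigen all the time without help, are known for a raised resting calcium level and NFAT in the nucleus.

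The start-site regions of both genes are shown because the genes share a high level in anergic cells and differ after HEL. They are 300 bases each, from 250 bases before to 50 bases after the start (RefSeq, GRCm38.p6), with the single E box (CANNTG) of each in capitals. Nrgn lies on the minus strand at chr9:37552696-37552995 and Pcp4 on the plus strand at chr16:96467356-96467655.
Nrgn: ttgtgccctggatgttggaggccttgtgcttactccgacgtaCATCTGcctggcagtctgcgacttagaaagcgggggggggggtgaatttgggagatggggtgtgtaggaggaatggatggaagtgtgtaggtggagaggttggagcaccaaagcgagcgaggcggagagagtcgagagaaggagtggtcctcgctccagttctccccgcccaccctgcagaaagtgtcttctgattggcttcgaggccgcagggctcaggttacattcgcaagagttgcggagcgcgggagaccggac
Pcp4: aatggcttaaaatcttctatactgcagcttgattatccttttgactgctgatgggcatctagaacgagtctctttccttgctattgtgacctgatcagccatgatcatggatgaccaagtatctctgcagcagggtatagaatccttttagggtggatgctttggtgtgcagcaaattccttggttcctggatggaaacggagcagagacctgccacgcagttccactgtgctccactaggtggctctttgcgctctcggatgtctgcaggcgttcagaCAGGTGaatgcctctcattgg
The Nrgn window has 59.3% GC and 17 CpG dinucleotides, the Pcp4 window 48.7% GC and 6 CpG dinucleotides, and the median over 32851 mouse windows of this length was 52.7% GC and 7 CpG. The E box covers bases 43 to 48 of the Nrgn window, before the start, and bases 280 to 285 of the Pcp4 window, after it, and 72.3% of all windows hold one. Neither window holds, on either strand, the letters TGGGAA of an Ikaros core (in 25.6% of windows), GGAAAA of an NFAT core (23.4%) or TGACGTCA of a cAMP response element (1.79%). No motif searched for overlaps another in these windows, and a match describes letters and shows no binding.

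Values are TPM, a level that takes account of transcript length and sums to the same total in each library. Recovered depth ran from 12126702 to 25424364 reads per library. The deleted gene fell where the labels say: Ikzf1 averaged 67.7 ± 7.2 TPM with Cre and 215 ± 26.5 TPM without after HEL (SD, n = 5 each; log2 difference -1.65 ± 0.09 SE, limma, adjusted p = 1.86e-08), and 36.6 ± 3.70 against 149 ± 16.4 TPM with CpG (n = 4 each; -1.99 ± 0.10, adjusted p = 1.31e-05). In naive cells Ikzf1 had 65.3 and 57.3 TPM in Cre fl/- libraries and 136 and 120 TPM in Cre fl/+ libraries, a difference that did not pass in limma (adjusted p = 0.0859) and passed on recovered reads (adjusted p = 0.0382). The sum of 6 B cell markers was 1977 to 3550 TPM in the CpG libraries and 11395 to 15609 TPM in all others, and that of 4 follicular markers 72.8 to 188 TPM against 1217 to 2895 TPM. In bulk RNA, fewer cells of a type and less RNA per cell cannot be told apart.

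Nrgn was high in all cells that had met HEL, whether for life or for 1 day. It had 85.7, 106 and 237 TPM in the 3 anergic libraries. It had 89.5, 72.1, 71.9, 93.7 and 84.7 TPM in the HEL libraries with Cre and 59.1, 47.3, 60.8, 51.9 and 47.9 TPM in those without. The lowest of these 13 values is 5.45-fold above the highest naive value.

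Nrgn was low in every naive library, with 4.79 and 6.73 TPM in Cre fl/- libraries, 5.52 and 6.49 TPM in Cre fl/+ libraries of series 36, and 8.67, 7.63 and 8.21 TPM in fl/+ libraries of series 57. With CpG it had 6.04, 10.7, 3.74 and 3.32 TPM in Cre fl/- libraries and 1.90, 2.95, 3.88 and 6.77 TPM in Cre fl/+ libraries. Naive and CpG values thus share 1 low range, from 1.90 to 10.7 TPM. In order, Nrgn averaged 143 ± 82.2 TPM in anergic cells, 82.4 ± 9.99 and 53.4 ± 6.28 after HEL with and without Cre, 8.17 ± 0.523 in naive series 57, 6.00 ± 0.686 in naive series 36 controls, 5.96 ± 3.41 with CpG in Cre fl/- cells, 5.76 ± 1.38 in naive Cre fl/- cells and 3.88 ± 2.09 with CpG in Cre fl/+ cells. The anergic and HEL Cre groups overlap, as do all neighbours from naive series 36 downwards.

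Pcp4 followed another order: it was high in anergic cells and after HEL with Cre, and low after HEL without Cre. The low values after HEL without Cre overlapped those of the naive controls of series 57. It had 19.0, 21.9 and 64.9 TPM in the anergic libraries. After HEL it had 18.1, 32.7, 16.6, 22.4 and 25.7 TPM with Cre, against 3.02, 2.31, 2.27, 3.18 and 1.45 TPM without. The HEL values without Cre rest on 9 to 24 reads per library and those with Cre on 108 or more.

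Naive cells held Pcp4 at a level that differed between library series. It had 14.8 and 20.3 TPM in Cre fl/- libraries and 13.4 and 5.37 TPM in Cre fl/+ libraries of series 36, and 4.02, 3.67 and 2.69 TPM in fl/+ libraries of series 57. With CpG, 2 of 8 libraries held any Pcp4 read: 2 reads (0.369 TPM) and 1 read (0.199 TPM) in Cre fl/- cells. The other 6 were at 0, which at a limit of 3 reads per library allows 0.573 to 0.720 TPM (counting error only), so that no fold between the CpG groups is given.

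In order, Pcp4 averaged 35.3 ± 25.7 TPM in anergic cells, 23.1 ± 6.47 after HEL with Cre, 17.5 ± 3.90 in naive Cre fl/- cells, 9.36 ± 5.64 in naive series 36 controls, 3.46 ± 0.688 in naive series 57 controls, 2.44 ± 0.691 after HEL without Cre and 0.142 ± 0.178 with CpG in Cre fl/- cells, with 0 in CpG Cre fl/+ cells. Neighbours overlapped or lay within the sum of their SDs at each place but one, the step down to CpG. The place of Pcp4 in naive cells differed between the series: controls of series 36 averaged 2.70-fold the controls of series 57, while for Nrgn this ratio was 0.735. These control sets also differ in genotype and, by Y-linked transcripts, in sex, so the ratio cannot be assigned to the series. Marker sums went both ways between the naive libraries of the series, and more of those that lay apart were higher in series 36. Higher in series 36, like Pcp4, were 4 NK cell markers, which summed to 14.0 to 29.8 TPM in its naive libraries and were all at 0 in those of series 57. The same held for 4 neutrophil markers, at 10.4 to 31.2 TPM and 0 to 0.214 TPM. T cell (16.8 to 30.4 against 8.82 to 15.9 TPM) and B-1 cell sums (29.1 to 32.0 against 20.8 to 23.0 TPM) were also higher in series 36. The plasma cell sum was higher by a very narrow gap. Lower in series 36 were the follicular sum, at 1842 to 2046 TPM against 2224 to 2895 TPM, and, by a narrow gap, the platelet and megakaryocyte sum. The latter was at 14.9 to 22.2 TPM against 22.4 to 33.5 TPM. Their part in the Pcp4 level was not tested.

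**Figure D1:**
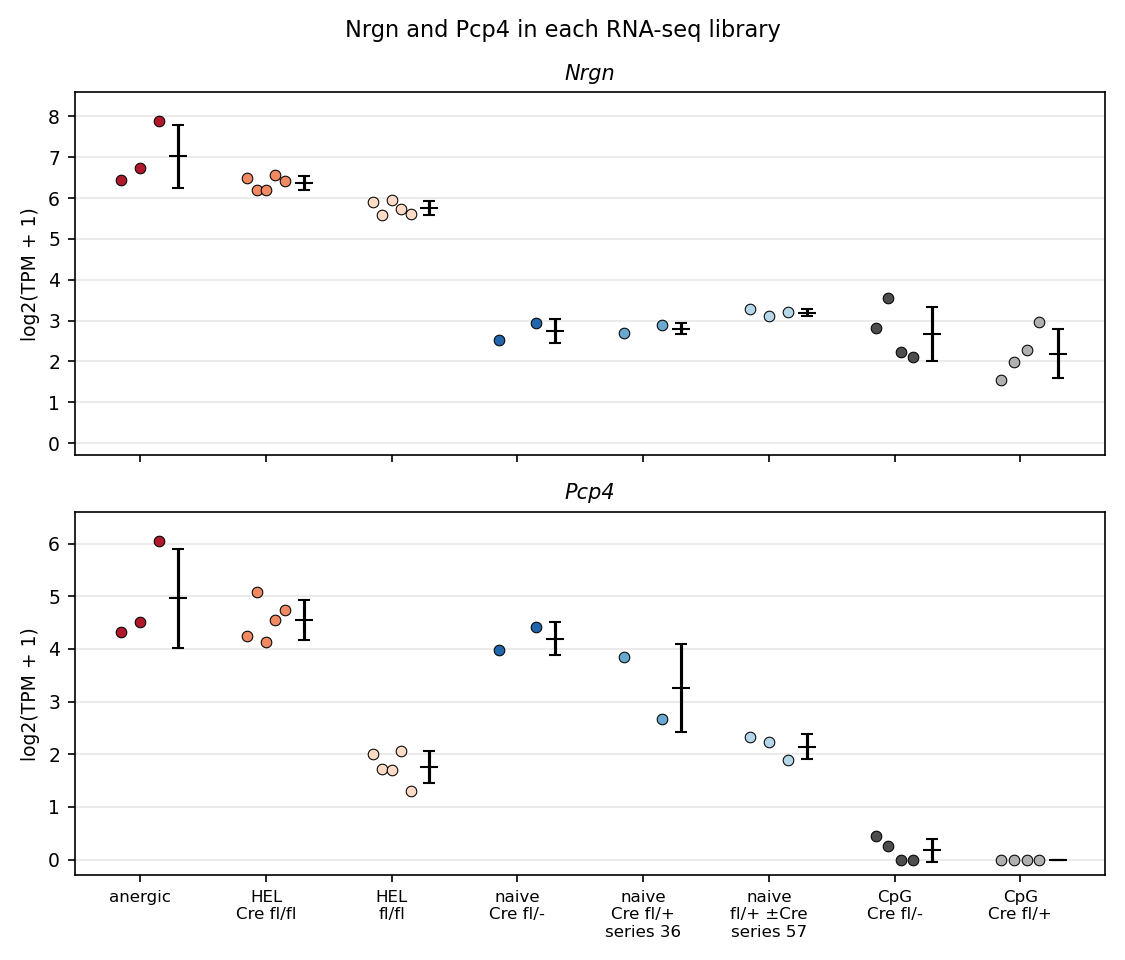
Level of Nrgn (top) and Pcp4 (bottom) in log2(TPM + 1) in each library (points), by group, with the group's mean and SD (line and bars). Nrgn is high in the 13 anergic and HEL libraries alone, while Pcp4 is low in the 5 HEL libraries without Cre (1.45 to 3.18 TPM) and at or near 0 in the 8 CpG libraries.

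The ratio of the 2 transcripts set cells after 1 day of HEL without Cre apart from the other groups outside CpG. Nrgn over Pcp4 was 3.66, 4.51 and 4.85 in the anergic libraries and 2.20 to 4.95 (median 4.18) after HEL with Cre, but 16.3 to 33.0 (median 20.5) after HEL without Cre. In naive cells it was 0.324 and 0.332 in Cre fl/- libraries, 0.413 and 1.21 in the series 36 controls and 2.08, 2.16 and 3.05 in the series 57 controls. Cells after HEL with Cre and anergic cells thus share a range of ratios that naive cells of series 57 also touch, and cells after HEL without Cre lie above it. With CpG a ratio could be taken in 2 libraries (16.4 and 54.0), each on 1 or 2 Pcp4 reads.

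**Figure D2:**
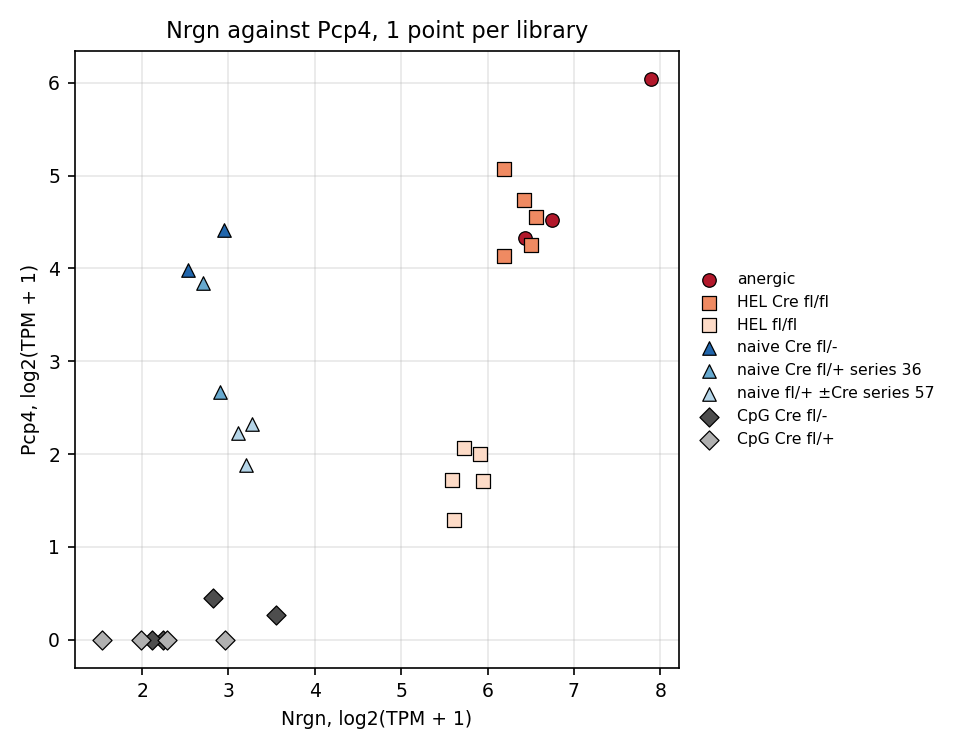
Pcp4 (vertical) against Nrgn (horizontal), both in log2(TPM + 1), 1 point per library, with colour and shape for the group. Anergic and HEL Cre fl/fl libraries lie together at the upper right, HEL fl/fl libraries at high Nrgn and low Pcp4, and naive libraries at low Nrgn over a wide range of Pcp4.

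Loss of Ikaros in HEL-exposed cells went with more of both transcripts, and with far more Pcp4. Nrgn was 1.54-fold higher with Cre (log2 difference of log2(TPM + 1) 0.62 ± 0.09 SE, n = 5 each) and Pcp4 9.45-fold (2.79 ± 0.18). For both genes every Cre library lies above every library without Cre, a separation that 9.27% of the 10258 genes tested show in this direction, and 12.9% of genes were called higher. Of those genes, 497 had a higher log2 difference than Nrgn and 10 a higher one than Pcp4. The labels name no sex, but Y-linked transcripts were at or near 0 in 3 libraries of each arm. Within these 3 against 3 the fold was 1.4 for Nrgn and 8.88 for Pcp4, and within the other 2 against 2 it was 1.79 and 10.4. Transcripts that mark cell types moved too, and the summed levels of 7 of 12 marker lists did not overlap between the arms. Of these, 4 were higher with Cre: dendritic cell markers summed to 6.12 to 7.38 TPM with Cre and 1.55 to 2.36 TPM without, B-1 cell markers to 45.1 to 54.6 and 18.2 to 28.4 TPM, plasma cell markers to 123 to 158 and 72.3 to 94.3 TPM, and monocyte and macrophage markers to 6.42 to 11.2 and 4.40 to 5.46 TPM. The other 3 were lower with Cre: marginal zone markers summed to 74.8 to 95.5 TPM with Cre and 128 to 168 TPM without, follicular markers to 1217 to 1723 and 1776 to 2134 TPM, and B cell markers to 11395 to 12485 and 13483 to 14579 TPM. Their part in the Nrgn and Pcp4 differences was not tested.

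Against naive cells of the same series, anergic cells held more of both. Nrgn was 17.5-fold higher (log2 difference 3.83 ± 0.32 SE, n = 3 each) and Pcp4 10.2-fold (2.82 ± 0.40). Both genes separate the groups fully, as 19.7% of the 10519 genes tested do in this direction, and 4.48% were called higher. Here 3 genes had a higher difference than Nrgn, and 22 a higher one than Pcp4. The third library, from the Cd23-Cre Ikzf1(fl/+) mouse, held 2.47-fold the mean of the other two in Nrgn and 3.17-fold in Pcp4. Ikzf1 was 179 TPM there, against 304 and 319 TPM in the libraries without Cre, and with 1 library of this genotype, genotype and library cannot be told apart. Without it the log2 difference was 3.40 for Nrgn and 2.27 for Pcp4, and the first and second library alone averaged 96.0 TPM of Nrgn and 20.5 TPM of Pcp4, which is 11.7 and 5.91 times the naive mean. The summed levels of 3 of the 12 marker lists did not overlap between anergic and naive cells, all higher in anergic cells. The 6 T cell markers summed to 79.3 to 115 TPM in anergic and 8.82 to 15.9 TPM in naive cells, of which Lck averaged 97.0 and 11.8 TPM, its row marked as overlapping another gene, while Cd3e was at 0 to 0.0975 TPM in anergic and 0 to 0.156 TPM in naive cells. The 5 B-1 cell markers summed to 27.8 to 46.8 TPM in anergic and 20.8 to 23.0 TPM in naive cells, most of it Spn, and the 4 NK cell markers to 0.256 to 0.442 TPM in anergic cells and to 0 in naive cells. Their part in the Nrgn and Pcp4 differences was not tested. In human blood NRGN is known as a platelet transcript. The platelet and megakaryocyte list of 11 genes summed to 24.0 to 31.1 TPM in anergic and 22.4 to 33.5 TPM in naive cells, most of it Itgb3, and the defining platelet genes Pf4 and Ppbp averaged 1.35 and 0.939 TPM in anergic cells against 0.451 and 0.401 TPM in naive cells.

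A single day of HEL, with Ikaros intact, parted the pair. Nrgn was 6.54-fold higher than in naive cells (log2 difference 2.56 ± 0.09 SE, n = 5 against 3), and Pcp4 was 0.706-fold (-0.39 ± 0.18). The naive Pcp4 values rest on 14 to 23 reads per library. By Y-linked transcripts these naive libraries were all male, while 3 of the 5 HEL libraries were female. Nrgn separates the groups fully, as 9.04% of the 10448 genes tested do in this direction, and Pcp4 values overlap. In all, 4 genes had a higher difference than Nrgn, and 8196 had a higher one than Pcp4 and 2251 a lower one. In this comparison 48% of genes were called, most of them lower, and the median over all genes was -0.16. HEL-exposed cells with Cre, set beside the same naive cells, held 10.1-fold the Nrgn and 6.67-fold the Pcp4. Between HEL without Cre and naive cells 6 of 12 marker lists did not overlap. The T cell sum moved with Nrgn, at 67.6 to 107 TPM after HEL with Cre, 47.4 to 84.1 TPM without and 8.82 to 15.9 TPM in naive cells, and nearly all of it was again Lck (90.8, 65.9 and 11.8 TPM on average), with Cd3e at 0 to 0.156 TPM. NK cell markers summed to 0.196 to 0.759 TPM after HEL without Cre. Lower after HEL without Cre than in naive cells were the follicular (1776 to 2134 against 2224 to 2895 TPM), platelet (10.2 to 14.3 against 22.4 to 33.5 TPM), plasma cell (72.3 to 94.3 against 103 to 114 TPM) and monocyte sums (4.40 to 5.46 against 6.86 to 12.8 TPM). Their part in the Nrgn and Pcp4 values was not tested.

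Set against cells with 1 day of HEL and intact Ikaros, anergic cells held 2.68-fold the Nrgn (log2 difference 1.27 ± 0.26 SE, n = 3 against 5) and 14.4-fold the Pcp4 (3.20 ± 0.34). Both genes separate the groups, as 34.1% of the 10491 genes tested do in this direction, and 36.8% were called higher. The Pcp4 difference was exceeded by 1 gene and that of Nrgn by 93. Without the third anergic library the values were 0.83 for Nrgn and 2.66 for Pcp4. By Y-linked transcripts the anergic libraries were all male, while 3 of the 5 HEL libraries were female. Of the 12 marker lists 3 lay apart, all higher in anergic cells: follicular (2243 to 2665 against 1776 to 2134 TPM), platelet (24.0 to 31.1 against 10.2 to 14.3 TPM) and plasma cell markers (107 to 146 against 72.3 to 94.3 TPM). Their part was not tested. The 3 comparisons above share the naive and the HEL libraries, so their values are not independent of each other. Ikaros loss after HEL was read against the same 5 HEL libraries without Cre. Its values are thus also not independent of the comparisons above that use these libraries. HEL-exposed cells with Cre held 0.576 times the Nrgn and 0.655 times the Pcp4 of anergic cells, with values that overlap for both genes. Without the third anergic library these ratios were 0.858 for Nrgn and 1.13 for Pcp4, so that the order of the Pcp4 means turned.

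With CpG, the effect of Ikaros loss on Nrgn had no steady direction. The group means gave 1.54-fold (log2 difference 0.49 ± 0.37 SE, n = 4 each), and the values overlap. The library numbers fall in a first and a second run of 4, each with 2 libraries per genotype. In the first run Nrgn averaged 8.39 TPM in Cre fl/- and 2.43 TPM in Cre fl/+ cells (3.46-fold), and in the second 3.53 and 5.33 TPM (0.662-fold). Leaving out 1 library at a time moved the log2 difference between 0.20, without the second Cre fl/- library, and 0.75. Pcp4 was too low in CpG cells to enter that fit, so it was compared in 6 of 7 comparisons and Nrgn in all 7. Of the 12 marker lists 1 lay apart, the follicular one, at 72.8 to 127 TPM in Cre fl/- and 138 to 188 TPM in Cre fl/+ cells. Among the genes tested in the CpG comparison 14.9% were called. The CpG minus HEL difference of the loss effect was -0.13 ± 0.37 (SE) for Nrgn, and for Pcp4 it was -2.61 ± 0.25, of which 1 side rests on CpG libraries at or under the limit of 3 reads. The Pcp4 value thus largely repeats the loss effect after HEL and alone cannot show a difference between the treatments. On recovered reads it was -2.36 ± 0.93 (SE, voom). In this last comparison 22.4% of genes were called. It sets Cre fl/- over Cre fl/+ (CpG) against Cre fl/fl over fl/fl without Cre (HEL). Treatment, library series and genotype pair thus cannot be told apart in it.

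In naive cells loss of Ikaros left Nrgn at 0.96 times the control (log2 difference -0.06 ± 0.25 SE, n = 2 each). Pcp4 was 1.87-fold higher (0.94 ± 0.37), and 100 of 10053 genes had a higher difference. Its values do not overlap, but 14.8 TPM in Cre fl/- cells and 13.4 TPM in Cre fl/+ cells lie close, and 11.8% of genes separate in this direction with 2 libraries each. By Y-linked transcripts the libraries with these close values were male, and those with 20.3 TPM (Cre fl/-) and 5.37 TPM (Cre fl/+) female. The difference was 0.35 without the second Cre fl/+ library and 1.53 without the first. Of all genes tested, 0.0199% were called in this comparison. The sums of 6 of 12 marker lists did not overlap, 1 higher in Cre fl/- cells (dendritic cell, 3.13 to 4.09 against 1.58 to 1.76 TPM) and 5 lower: the T cell and erythroid sums, and, by narrow gaps, the B cell (13817 to 14873 against 15055 to 15379 TPM), follicular (1842 to 1924 against 1944 to 2046 TPM) and B-1 cell sums (29.1 to 29.4 against 30.4 to 32.0 TPM). Their part in the Pcp4 difference was not tested.

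**Figure D3:**
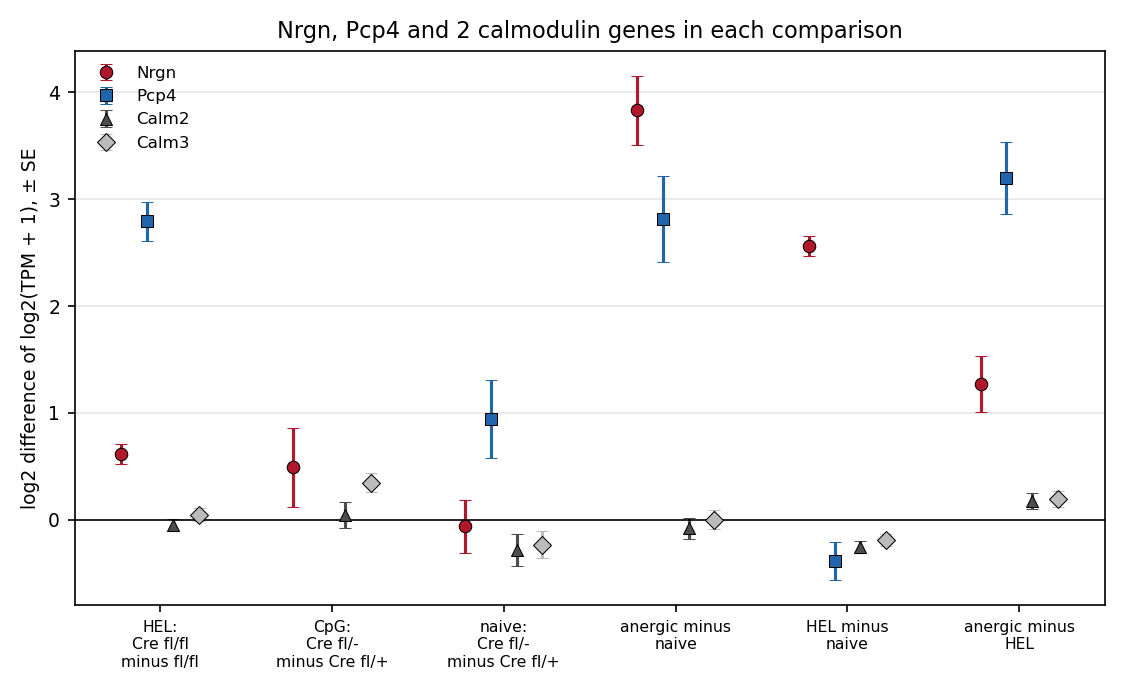
Log2 difference of log2(TPM + 1) with its SE (vertical) for Nrgn, Pcp4, Calm2 and Calm3 in 6 comparisons (horizontal). Nrgn is above 2 in both comparisons with naive cells of series 57, Pcp4 is above 2 in 3 comparisons and at -0.39 for HEL minus naive, and neither Calm2 nor Calm3 is beyond 0.5 either way.

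Genes whose level ran most like each member were found by Pearson's r over the 28 libraries on log2(TPM + 1), among 7675 genes. This is a description: libraries of a group share a series and a treatment. For Nrgn these were Renbp, an epimerase of amino sugars (r = 0.910), Rgs3, which shortens G protein signals (0.908), Vav3, an exchange factor for small GTPases (0.895), the tyrosine phosphatase gene Ptpn7 (0.888) and Dcaf12, a substrate receptor of a ubiquitin ligase (0.886). Renbp averaged 35.2 TPM in anergic, 50.9 and 30.6 TPM in HEL-exposed cells with and without Cre, and 12.8 TPM in naive cells of series 57. Rgs3 averaged 7.52, 2.74, 3.74 and 1.02 TPM in the same order, so it was lower after HEL with Cre than without, unlike Nrgn.

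For Pcp4 the 5 were Bcl10, an adaptor between antigen receptor and NF-kB (r = 0.908), the acyltransferase gene Agpat9 (0.895), the endolysosomal channel gene Mcoln2 (0.888), the interleukin 9 receptor gene Il9r (0.883) and Fam167a (0.881). Il9r averaged 213 TPM in anergic cells, 139 and 48.9 TPM after HEL with and without Cre, 90.2 TPM in naive cells of series 57 and 1.37 and 0.947 TPM with CpG in Cre fl/- and Cre fl/+ cells. Like Pcp4 it was on average lower after HEL without Cre than in naive cells, and lowest with CpG. The 2 members were less like each other than these: r was 0.679, which placed Pcp4 at 620 among the genes most like Nrgn and Nrgn at 663 among those most like Pcp4.

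**Figure D4:**
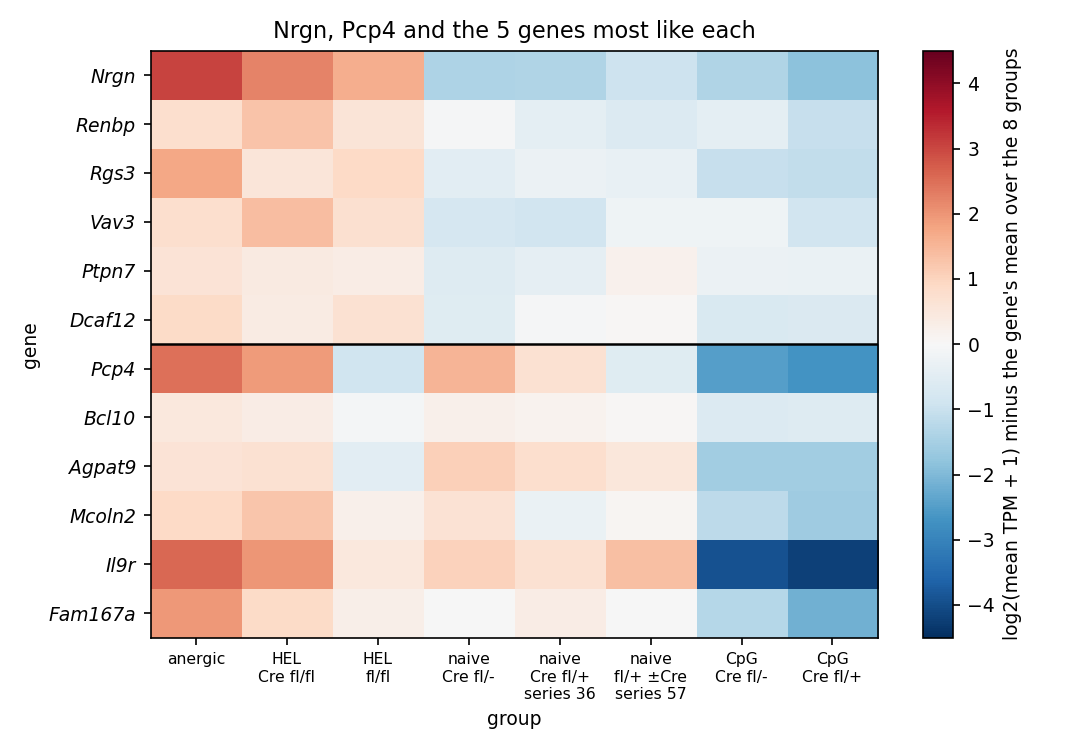
Mean level per group (columns) of Nrgn, Pcp4 and the 5 genes most like each (rows), as log2(mean TPM + 1) minus the gene's mean over the 8 groups. Nrgn and the 5 genes under it are higher in the first 3 columns than in the other 5, Pcp4 and its 5 are lower in the third column (HEL fl/fl) than in the first and second, and all 5 genes most like Pcp4 are lowest in the CpG columns.

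Transcripts of the binding partner itself were abundant throughout. The calmodulin genes Calm2 and Calm3 averaged 220 and 436 TPM in anergic cells and 233 and 435 TPM in naive cells (SD 11.4 to 27.2, n = 3 each), and neither passed the test between them (limma, adjusted p = 0.683 and 0.997). Anergic cells thus held 143 TPM of Nrgn beside these levels, where naive cells held 8.17 TPM. After HEL without Cre, against naive cells, Calm2 (-0.26 ± 0.06 SE) and Calm3 (-0.19 ± 0.06) passed as lower (adjusted p = 0.00516 and 0.0173), but not after median-ratio scaling, which gave -0.07 and -0.00 (adjusted p = 0.377 and 0.966). Calm3 averaged 606 ± 35.5 TPM in CpG Cre fl/- and 478 ± 58.5 TPM in CpG Cre fl/+ cells (n = 4 each; 0.35 ± 0.09, adjusted p = 0.035), a call lost in 9 of 14 alternatives (highest adjusted p = 0.0902). Gap43, the neuronal relative of Nrgn, was at 0 in all 28 libraries, and Pcp4l1, the relative of Pcp4, and the calmodulin-like Calml4 averaged under 0.1 TPM in every group.

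Partners and targets of calmodulin were read from 4 lists of 58 genes: calmodulin and other proteins that hold it, calmodulin-dependent kinases, calcineurin with NFAT, and other effectors. With Ikaros loss after HEL, 6 of the 39 tested passed as higher and 15 as lower (53.8% called, against 36.9% of all genes tested, 12.9% higher and 24.1% lower; median -0.14 against -0.08). With median-ratio scaling the split was 7 higher and 10 lower. Calcineurin and NFAT genes gave 1 higher and 5 lower of 10, with Ppp3cc, a catalytic subunit, at 59.7 ± 3.03 TPM with Cre and 100 ± 15.7 TPM without (-0.72 ± 0.09, adjusted p = 5.76e-05). Camk2a, a kinase best known from neurons, had 9.85, 9.98, 8.18, 8.77 and 9.03 TPM with Cre and 1.08, 1.28, 1.56, 0.920 and 1.25 TPM without (7.52-fold; 2.20 ± 0.09, adjusted p = 2.36e-09), though its row is marked as overlapping another gene. Eef2k, the kinase of elongation factor 2, rose (0.84 ± 0.07, adjusted p = 1.7e-06), as did Marcks, which binds calmodulin at the membrane (0.98 ± 0.10, adjusted p = 1.1e-05).

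In anergic against naive cells, 2 of 39 list genes passed as higher and 1 as lower (7.69% called, against 7.37% of all genes, 4.48% higher and 2.89% lower), a share near that of all genes. Marcksl1, a relative of Marcks, had 297, 369 and 342 TPM in anergic and 185, 163 and 160 TPM in naive cells (0.98 ± 0.11, adjusted p = 0.00191). Kcnn4, a potassium channel that opens through bound calmodulin, had 21.5, 14.5 and 25.6 TPM in anergic and 54.2, 43.7 and 56.0 TPM in naive cells (-1.31 ± 0.20, adjusted p = 0.00662). Nfatc1 averaged 107 ± 25.5 and 62.3 ± 7.87 TPM (0.75 ± 0.18, adjusted p = 0.0395), a call lost in 5 of 11 alternatives, among them leaving out the first anergic library or any 1 naive library (highest adjusted p = 0.148). The count of calls was 5 without the second and 5 without the third anergic library.

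After HEL without Cre, against naive cells, 2 of 39 passed as higher and 27 as lower (74.4% called, against 48% of all genes, 9.92% higher and 38.1% lower; median -0.38 against -0.16). All-gene medians moved by over 0.1 with median-ratio scaling in 3 comparisons: they came to 0.01 here (-0.16 as deposited), to -0.01 in naive Ikaros loss (-0.12 as deposited), and to -0.01 for anergic minus HEL (0.23 as deposited). With that scaling the lists gave 5 higher and 17 lower here. The 4 with the smallest adjusted p were the scaffold gene Strn4 (-0.90 ± 0.07, adjusted p = 1.82e-05), the calcium pump gene Atp2b1 (-0.84 ± 0.08, adjusted p = 3.26e-05), Eef2k (-0.79 ± 0.10, adjusted p = 0.000241) and Camk2g (-0.69 ± 0.09, adjusted p = 0.000243), and all 4 stayed called as lower with that scaling. Camk2a averaged 1.22 ± 0.239 TPM after HEL and 5.15 ± 2.22 TPM in naive cells (0.236-fold; adjusted p = 0.000675). Camk2a, like Pcp4, was thus low after HEL where Ikaros was intact and higher after HEL with Cre. Unlike Pcp4, it was not high in anergic cells. It had 1.36, 1.49 and 2.33 TPM there and 7.03, 2.70 and 5.73 TPM in naive cells of series 57 (-1.12 ± 0.29 SE, limma, adjusted p = 0.056).

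Between anergic cells and HEL-exposed cells without Cre, 18 of 39 passed as higher and 1 as lower (48.7% called, against 42.2% of all genes, 36.8% higher and 5.39% lower; median 0.32 against 0.23), and with median-ratio scaling 9 as higher and 2 as lower. Without the third anergic library 27 passed. Marcksl1 averaged 336 ± 36.3 TPM in anergic and 136 ± 11.3 TPM in HEL-exposed cells (1.29 ± 0.10, adjusted p = 4.17e-05). Kcnn4 averaged 20.5 ± 5.62 and 74.3 ± 12.3 TPM (-1.83 ± 0.18, adjusted p = 0.000175). Eef2k (0.76 ± 0.09, adjusted p = 0.000362) and the calcineurin catalytic gene Ppp3ca (0.65 ± 0.10, adjusted p = 0.00115) were also higher in anergic cells.

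With CpG, Ikaros loss gave 5 higher and 4 lower of 40 list genes (22.5% called, against 14.9% of all genes, 9.14% higher and 5.8% lower), and 4 and 6 with median-ratio scaling. Eef2k averaged 14.6 ± 1.33 TPM in Cre fl/- and 5.29 ± 0.589 TPM in Cre fl/+ cells (1.31 ± 0.10, adjusted p = 9.3e-05), and was 2.52-fold and 3.03-fold higher in the first and second run. Marcksl1 (0.97 ± 0.15, adjusted p = 0.0038) and Iqgap3, a scaffold that binds calmodulin through IQ motifs (1.22 ± 0.20, adjusted p = 0.00441), rose. Camk1d fell to 9.08 ± 0.702 TPM in Cre fl/- cells, against 13.5 ± 1.41 TPM in Cre fl/+ cells (-0.52 ± 0.10, adjusted p = 0.00797). These 4 kept their direction in both runs. They were named for the smallest adjusted p over these same libraries, so no contrast with Nrgn is drawn.

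In naive cells 0 of 38 list genes passed in limma, where 7 had an unadjusted p under 0.05, and 1 passed with median-ratio scaling and 1 on recovered reads, Camk2a both times. It had 13.4 ± 2.66 TPM in Cre fl/- and 4.29 ± 0.140 TPM in Cre fl/+ cells (n = 2 each; 1.43 ± 0.24, adjusted p = 0.0896). The difference of the loss effect between CpG and HEL passed for 13 of 42 list genes, 9 with a positive and 4 with a negative value (31% called, against 22.4% of all genes, 15.2% positive and 7.19% negative). Of these 13, 10 had been tested in both loss comparisons. The difference was 0.92 ± 0.20 for Marcksl1 (adjusted p = 0.00282) and -0.58 ± 0.13 for Myo5a, an unconventional myosin with calmodulin light chains (adjusted p = 0.00339). Camk2a was too low with CpG, and Iqgap3 too low after HEL (0.0364 to 0.455 TPM), to be tested there. Their values (-1.87 ± 0.22 and 1.02 ± 0.21) thus largely repeat the loss effect of the other side and alone cannot show a difference between the treatments. On recovered reads the Iqgap3 value was 0.01 (voom, adjusted p = 0.996) and the Camk2a value -2.1 (adjusted p = 0.00478).

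**Figure D5:**
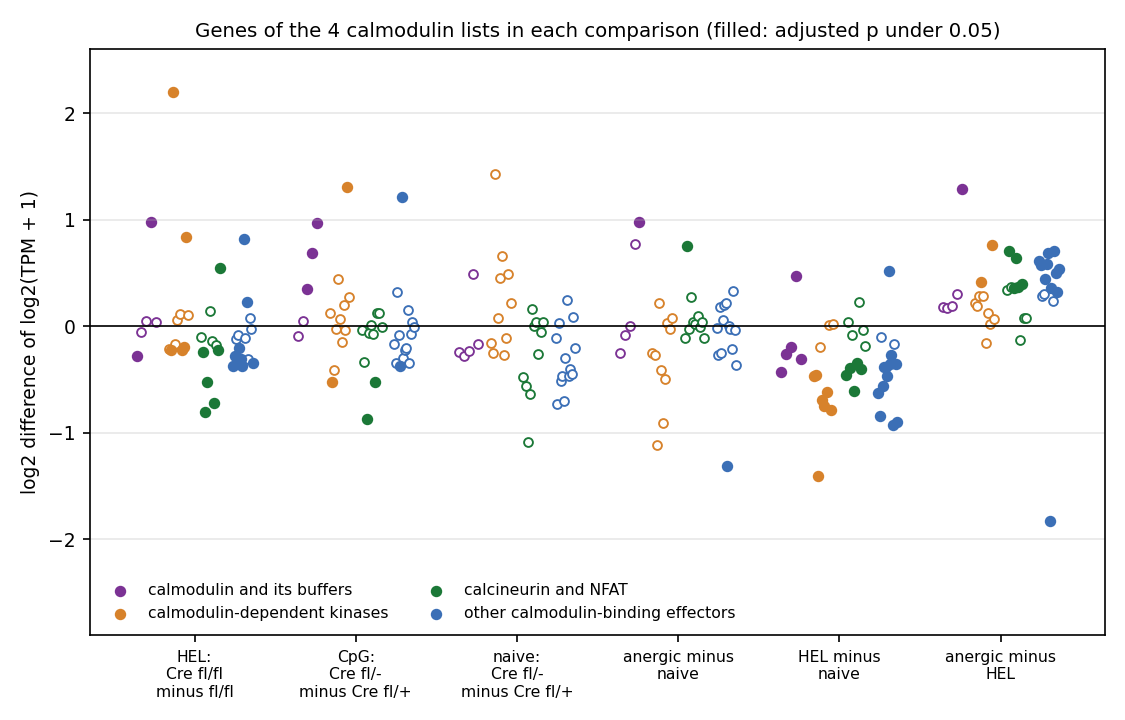
Log2 difference of log2(TPM + 1) (vertical) of each tested gene of the 4 calmodulin lists in 6 comparisons (horizontal), coloured by list, filled where the limma adjusted p is under 0.05. The HEL minus naive points lie mostly below 0 (27 lower, 2 higher) and the anergic minus HEL points mostly above it (18 higher, 1 lower), as the medians of all genes do.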

How the data were processed

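The authors deposited TPM values, 1 file for each of 28 RNA-seq libraries, and the values of each library sum to 1000000. Per the labels' protocols RNA was taken with RNeasy Plus Mini and mRNA with Dynabeads kits. Per the submitters' processing notes the build was mm9 and the tools featureCounts 1.5.0, TopHat 1.4.1 with Bowtie, deepTools 3.0.1 and SAMtools 1.4; strandedness and annotation are not given in the sources used here. The 8 ATAC-seq and 4 ChIP-seq libraries among the 40 samples are not analysed here.

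Within a gene TPM values are whole multiples of 1 read, and whole reads (tolerance 0.01) were recovered for 18843 of 18843 genes above 0. They give the depth and were tested with voom as an alternative; they carry counting error only. Since no label says that replicates are separate animals, p-values reflect only how far these samples spread, in part perhaps for technical reasons. Over 40 replicate pairs chi-square per degree of freedom was 6.34 to 51.5, so none agreed within sampling noise.

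Log2(TPM + 1) was fitted with limma 3.58.1 (R 4.3.3), with a trend, two-sided, over genes with a TPM of 1 or more in as many libraries as the smaller group (4 for the CpG minus HEL difference). p-values were Benjamini-Hochberg adjusted over all genes tested and called under 0.05. Each of 7 comparisons stayed within a library series, except the CpG minus HEL difference, which spans series 49 and 57 and unlike genotype pairs. This scale understates changes of low genes. The script was tested on simulated data. Values after ± are SE for log2 differences and SD for levels.

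Nrgn, Pcp4 and the lists were chosen with earlier results of these data known. The text names Nrgn, Pcp4, Ikzf1, Calm2, Calm3, up to 4 called list genes per comparison with the smallest adjusted p, list genes over 4-fold apart with 5 TPM or more in the higher group, and the 5 genes most like each member; 1 further gene that the rule names is not reported here. Alternatives were pseudocounts of 0.1 and 0.5, no filter, median-ratio scaling, voom, terms for sex and for the run of library numbers, and leaving out each library.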

Additional observations from a re-analysis of the deposited data

Results flagged for a closer look

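Among 19 groups of 4 to 10 libraries examined, where chance alone gives about 1 in 20, 1 held a library far from the rest. Ikzf1 was 260.8 TPM in the third HEL fl/fl library without Cre, above 195 to 214 TPM in the other 4.

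The effect of Ikaros loss differed between CpG and HEL, by a test of the difference itself, for Marcksl1, with a CpG minus HEL value of 0.92, and for Myo5a, with -0.58. Camk2a (-1.87) and Iqgap3 (1.02) passed the same test, but Camk2a was too low to be tested with CpG and Iqgap3 after HEL. These values alone thus cannot show a difference between the treatments. On recovered reads the Iqgap3 value was 0.01 and did not pass (voom, adjusted p = 0.996). The Camk2a value was -2.1 there and passed (adjusted p = 0.00478). Of 25 alternatives the call was lost in 2 for Iqgap3 and in 0 for Camk2a. Treatment, library series (49 and 57) and genotype pair cannot be told apart in these values. The pair was Cre fl/- over Cre fl/+ with CpG, and Cre fl/fl over fl/fl without Cre after HEL. For Camk2a the loss effect was a log2 difference of 2.20 after HEL, while Camk2a stood at 0.412 to 1.38 TPM with CpG in Cre fl/- and 0.182 to 0.775 TPM in Cre fl/+ cells.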

How the results depend on the processing

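No paired analysis was possible because the labels give no replicate numbers; those used here follow accession order. Among the alternative values of the Nrgn and Pcp4 differences 174 lay within 1 SD of the reported one. Another 5 were larger or smaller in the same direction: the Pcp4 difference with Ikaros loss after HEL (2.79) was 3.19 with a pseudocount of 0.1 and 3.23 with voom, the Nrgn difference of HEL minus naive (2.56) was 2.73 with median-ratio scaling and 2.83 with voom, and the Pcp4 difference between CpG and HEL (-2.61) was -2.24 with a pseudocount of 0.1. Small Nrgn differences took either sign: in naive cells (-0.06) from -0.27 to 0.15 when 1 library was left out, and between CpG and HEL (-0.13) from -0.42 to 0.13. Median-ratio scaling put naive Cre fl/- cells at 7.39 TPM of Nrgn and 22.5 TPM of Pcp4, and series 36 controls at 7.01 TPM of Nrgn.

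List counts moved by over 1.5 times in 3 comparisons. Naive Ikaros loss (0) gave 1 with median-ratio scaling and 1 with voom. Anergic against naive (3) gave 5 with median-ratio scaling, 6 with voom and 2 to 5 when 1 library was left out. Anergic against HEL (19) gave 11 with median-ratio scaling. A term for sex could not be fitted where all libraries were male (anergic against naive, CpG), and it was not run for naive Ikaros loss. Over the alternatives of the single list genes named, a call was lost 39 times and gained 14 times, and no called value turned its direction. The cause of these shifts was not tested. Depth limits Pcp4, which had 1 to 24 reads in the HEL libraries without Cre and in the CpG libraries with any read. It had 14 to 23 reads in the naive libraries of series 57.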
